A study of Mus musculus with 16 samples.

Results

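Ribosome footprints of cold-exposed mouse adipose tissue were compared between mice in which Mettl3 was deleted by an adipocyte Cre and their floxed controls. The genes described are those with at least 1 RPKM (reads scaled to gene length and to the size of the library) in at least 2 of the 4 footprint libraries, which were 11803 of the 17883 genes in the deposited matrix (66.0%). The groups were WT cold, C57BL/6 mice carrying METTL3 flox/flox with no Cre listed, and cKO cold, C57BL/6 mice carrying METTL3 flox/flox and Adipoq-Cre +/-. Mice of both groups were 8 weeks old and were housed singly at 4 °C for 7 days. Each group had 2 footprint libraries, and the 2 input RNA libraries of each of the same conditions served as the measure of RNA. The series holds 16 libraries in 8 groups, and its title concerns stabilization of Klf9 mRNA by METTL3 during the beiging of white fat. Adipoq-Cre acts in adipocytes, so the other cells of the tissue keep Mettl3 in both groups. The fat depot is not named in the labels, and the footprint libraries do not include a room temperature group, so all values refer to cold tissue. The labels do not say that replicates came from separate animals, and p-values therefore measure only the spread between these libraries.

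METTL3 is the catalytic subunit of the nuclear enzyme complex that methylates adenosine in mRNA to N6-methyladenosine (m6A), a mark that reader proteins use to alter the stability, splicing and translation of the transcript. Ribosome profiling sequences the short mRNA fragments that ribosomes protect from digestion, so the footprints of a gene reflect both the amount of its mRNA and how densely ribosomes occupy it. In beige fat, adrenergic signalling in the cold raises the uncoupling protein UCP1 together with mitochondria and fatty acid oxidation, and these genes are the usual readout of beiging.

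The targeted gene was not lower in the cKO footprints. Mettl3 footprints stood at 4.60 and 4.82 RPKM in WT cold replicates 1 and 2 and at 8.99 and 5.22 RPKM in cKO cold replicates 1 and 2, from at least 10, 8, 17 and 12 reads. Both cKO values lay above both WT values, as they did in 49.8% of all genes tested. The difference of 0.47 ± 0.37 (log2 fold change of RPKM + 1 ± SE, n = 2 libraries per group) was not called (limma adjusted p = 0.395), and in the input RNA it was -0.53 ± 0.37 (adjusted p = 0.388). The median gene was higher by 0.45 in footprints. With values centred on the median gene the Mettl3 footprint difference was 0.04 (limma adjusted p = 0.966). Values over the whole gene cannot show the loss of a part of it, which exons were floxed is not given in the sources used here, and cells without Cre keep the gene, so Mettl3 gives no check of the labels. In what follows, WT and cKO mean the libraries so labelled.

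The 4 footprint libraries held at least 1676208 to 2461267 recovered reads, known up to a common factor per gene. Log2 values of replicates correlated across genes at r = 0.956 in WT and 0.947 in cKO, which describes genes and not independent replicates. The predicted gene Gm20594 alone held 506147 to 1603440 RPKM in footprints, or 3.02% to 10.1% of the recovered reads, with the highest share in WT replicate 2. The adipocyte markers were abundant in all 4 footprint libraries, with all 26 of the list above 0 and summed values of 62189 to 87743 RPKM. Adiponectin (Adipoq), the adipocyte hormone whose promoter drives the Cre, stood at 1478 and 1627 RPKM in WT and at 1597 and 3355 RPKM in cKO. Genes of other tissues were present too. The library of cKO replicate 1 stood apart: 39 hair keratin-associated protein genes (Krtap) summed to 458 RPKM there and to 0, 2.82 and 11.9 RPKM in the other 3 libraries, and 20 skeletal muscle markers summed to 672 RPKM against 57.4 to 109 RPKM. Its part in the results was not tested, and the counts of the main gene lists are given with and without single libraries.

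More genes had higher than lower footprints in cKO. With values as deposited, 863 genes rose (7.31% of those tested) and 215 fell (1.82%) at a limma adjusted p under 0.05, and 3811 had an unadjusted p under 0.05. The counts of each gene list below are to be read against these values. The median gene was higher by 0.45 on the log2 scale and 79.3% of genes lay above 0, so the balance of calls depends on the scale. After each library was centred on its median gene, 144 genes rose (1.22%) and 366 fell (3.1%). With quantile scaling 150 rose (1.27%) and 307 fell (2.6%). All 144 centred rises were among the 863, and all 215 genes that fell as deposited were among the 366. The groups did not overlap with cKO above WT in 5878 genes (49.8%) and with cKO below WT in 968 (8.2%). Rises were mostly moderate: 787 of the 863 were at least 2-fold (1 on the log2 scale) and 17 at least 8-fold, against 193 and 18 of the 215 falls. The genes with the highest mean footprints carried more of the calls in both directions. Among the 2951 most abundant genes 129 fell and 299 rose, and among the 2951 least abundant 27 fell and 106 rose. The median SE of the difference was 0.28 in the most abundant and 0.39 in the least abundant genes.

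Much of this count rests on single libraries. Without WT replicate 2, 50 genes rose and 55 fell, and without cKO replicate 1, 53 rose and 50 fell. Without WT replicate 1 the counts were 816 and 135, and without cKO replicate 2 they were 450 and 172. The 4 footprint libraries fitted alone, with 2 residual degrees of freedom, gave 50 rises and 41 falls. Kept without each library in turn, and with both centred and quantile-scaled values, were 24 of the 863 rises and 32 of the 215 falls. Of these, 18 and 28 were also called in the 4 footprint libraries alone.

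**Figure D1:**
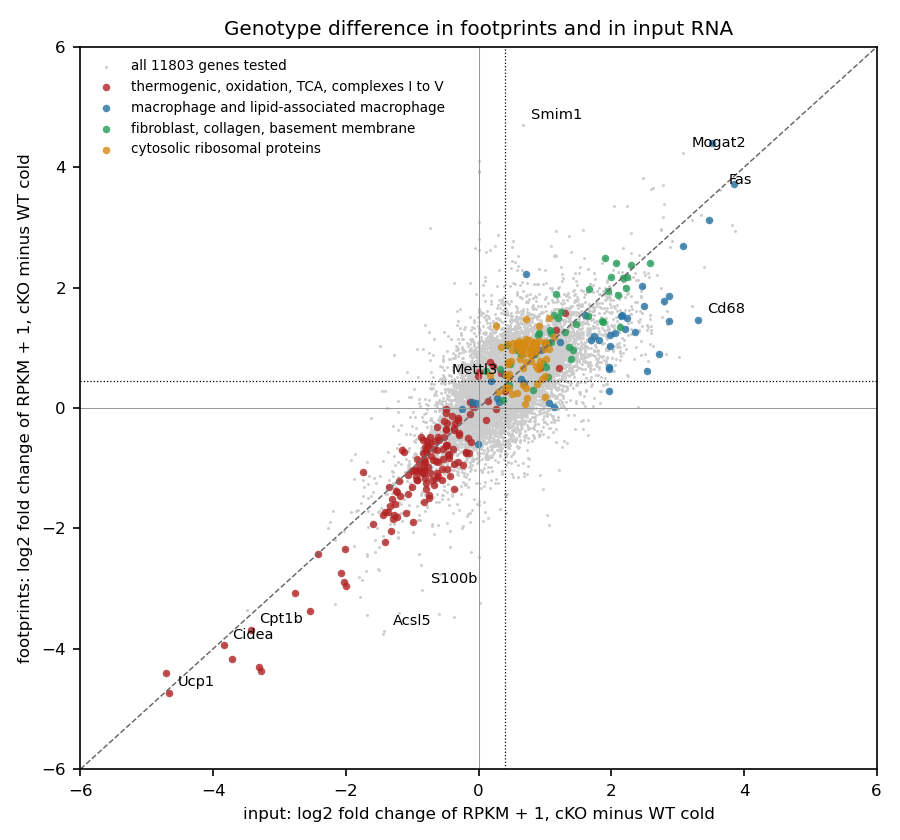
Genotype difference (log2 fold change of RPKM + 1, cKO minus WT) in footprints (vertical axis) against input RNA (horizontal axis) for 11803 genes, with 4 gene groups coloured and dotted lines at the median gene of each axis. Most genes lie above 0 on both axes, genes of thermogenesis and oxidation lie at the lower left, and macrophage and fibroblast genes at the upper right.

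Thermogenic and beige genes fell in cKO footprints. Of 30 markers on the list, 16 fell and 0 rose, and their median was -1.97 against 0.45 for all genes tested. Not every member went down: 7 lay above 0, the highest at 1.57. The groups did not overlap with cKO below WT in 21 members (8.2% of all genes) and with cKO above WT in 6 (49.8% of all genes). With centred values 17 fell, and the count was 7 to 15 when 1 library was left out, the lowest without cKO replicate 1 (7) and WT replicate 2 (8). Summed over the list, footprints were 13679 and 11939 RPKM in WT and 2085 and 2581 RPKM in cKO. The list was chosen with results of these samples known and is no independent evidence of its direction.

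Ucp1, which uncouples respiration from ATP synthesis to release heat, had footprints of 3795 and 2493 RPKM in WT and of 149 and 88.4 RPKM in cKO. The groups lay far apart, with a difference of -4.73 ± 0.72 (limma adjusted p = 0.0109). Without WT replicate 2 or cKO replicate 1 the adjusted p was 0.0626 and 0.0597. Cidea, a lipid droplet protein typical of brown and beige fat, stood at 1719 and 899 RPKM in WT and at 74.9 and 85.5 RPKM in cKO. It fell by 3.94 ± 0.30 (adjusted p = 0.00102) and was called without each library in turn. Cpt1b, the muscle and brown fat form of the enzyme that admits long-chain fatty acids to mitochondria, stood at 344 and 253 RPKM in WT and at 25.2 and 19.3 RPKM in cKO, and fell by 3.68 ± 0.31 (adjusted p = 0.00138). Acot11, a thioesterase of fatty acyl-CoA induced by cold, stood at 228 and 152 RPKM against 12.5 and 5.75 RPKM and fell by 4.30 ± 0.39 (adjusted p = 0.00172). Both calls held without each library.

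Some other large falls on the list had replicates that lay further apart. The fatty acid importer gene Slc27a2 stood at 55.7 and 20.3 RPKM in WT and at 0.989 and 0.407 RPKM in cKO, and fell by 4.38 ± 0.51 (limma adjusted p = 0.00622), also without each library. Slc27a2 passed the filter through its WT libraries alone. Fabp3, a fatty acid carrier of oxidative tissues, stood at 1480 and 709 RPKM in WT and at 98.0 and 22.8 RPKM in cKO. It fell by 4.40 ± 0.83 (adjusted p = 0.0217), but the adjusted p was 0.0521 to 0.0856 whichever library was left out. Pdk4, the kinase that restrains pyruvate dehydrogenase, stood at 393 and 1617 RPKM in WT and at 66.6 and 28.2 RPKM in cKO. It fell by 4.17 ± 0.71 (adjusted p = 0.0158), was called without WT replicate 1, and reached adjusted p of 0.0565 to 0.0901 without any of the other 3.

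Regulators on the list had smaller differences. Ppargc1a, the coactivator that drives mitochondrial biogenesis, stood at 9.87 and 22.6 RPKM in WT and at 1.54 and 4.91 RPKM in cKO and fell by 2.05 ± 0.48 (limma adjusted p = 0.037). This call ended without WT replicate 2 (0.184) or cKO replicate 1 (0.164). Several well-known markers missed the threshold as deposited. Dio2, the deiodinase that activates thyroid hormone, had 5.51 and 14.5 RPKM in WT and 3.46 and 2.37 RPKM in cKO (-1.37 ± 0.40, adjusted p = 0.0617; 0.0493 centred). Adrb3, the adipocyte adrenergic receptor, had 16.5 and 29.0 RPKM against 5.31 and 12.5 RPKM (-1.31 ± 0.38, adjusted p = 0.0617). Elovl3, a fatty acid elongase of cold-exposed fat, had 1034 and 342 RPKM in WT and 13.6 and 226 RPKM in cKO (-3.37 ± 1.03, adjusted p = 0.0681). For these 3 genes cKO lay below WT in every library, with the cKO replicates of Elovl3 wide apart.

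Fatty acid oxidation fell as well. Of 25 genes of the pathway 17 fell and 0 rose, 21 with centred values and 7 to 14 when 1 library was left out (7 without WT replicate 2 or cKO replicate 1). The median was -1.22, and 22 of 25 genes had cKO below WT in both libraries (8.2% of all genes tested). Hadhb, the thiolase subunit of the mitochondrial trifunctional protein, stood at 2801 and 2645 RPKM in WT and at 542 and 625 RPKM in cKO. The replicates of each group differed little, and the fall of 2.22 ± 0.23 (limma adjusted p = 0.00377) was called without each library. Echs1, the enoyl-CoA hydratase of the cycle, stood at 944 and 1183 RPKM against 263 and 346 RPKM and fell by 1.80 ± 0.29 (adjusted p = 0.0132). Acot2, a mitochondrial acyl-CoA thioesterase, stood at 15.3 and 38.2 RPKM against 8.46 and 3.90 RPKM and fell by 1.89 ± 0.45 (adjusted p = 0.037). Without WT replicate 2 the adjusted p was 0.0804 for Echs1 and 0.175 for Acot2, and without cKO replicate 1 it was 0.0794 for both. The call of Acot2 was also lost without cKO replicate 2 (0.104).

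The next steps of oxidation fell with it. Some lists share members, so their counts do not add up. The thermogenic list shares Cpt1b, Acot2 and Slc25a20 with fatty acid oxidation. It also shares Cox7a1 and Cox8b with complexes II to V, and Gk and Cidec with triglyceride synthesis and lipolysis. The TCA cycle list shares Sdha, Sdhb, Sdhc and Sdhd with complexes II to V. In the list of the TCA cycle and pyruvate dehydrogenase, 14 of 22 genes fell and 0 rose (17 centred; 13 without cKO replicate 2, 9 without WT replicate 1, 5 without WT replicate 2 and 3 without cKO replicate 1), with a median of -1.13. Idh3g, a subunit of the NAD-linked isocitrate dehydrogenase, stood at 589 and 669 RPKM in WT and at 150 and 202 RPKM in cKO. It fell by 1.84 ± 0.24 (limma adjusted p = 0.00745), also without each library. Sucla2 and Suclg1, subunits of succinyl-CoA ligase, fell by 1.60 ± 0.27 and 1.75 ± 0.25 (adjusted p = 0.0149 and 0.00875), and were lost without cKO replicate 1 (0.0789) and WT replicate 2 (0.0562) respectively.

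Among the respiratory complexes 9 of 36 complex I subunits fell and 0 rose, and 11 of 39 nuclear subunits of complexes II to V fell and 0 rose. With centred values 23 and 20 fell, with quantile scaling 13 and 10. When 1 library was left out the counts were 1 to 7 and 1 to 12, namely 6 and 7 without WT replicate 1, 1 and 2 without WT replicate 2, 1 and 1 without cKO replicate 1, and 7 and 12 without cKO replicate 2. All 36 complex I subunits lay below the median gene. Cox7a1, the heart and brown fat isoform of a cytochrome c oxidase subunit, stood at 1232 and 1109 RPKM in WT and at 165 and 136 RPKM in cKO and fell by 2.95 ± 0.31 (limma adjusted p = 0.00377, called without each library). Cox8b, a tissue-specific isoform of a different subunit of that enzyme, stood at 970 and 1722 RPKM against 136 and 274 RPKM. It fell by 2.74 ± 0.39 (adjusted p = 0.00875), a call lost without WT replicate 2 or without cKO replicate 1 (differences of -2.32 and -2.23). Falls of common subunits were smaller: Ndufa9, a complex I subunit, stood at 436 and 402 RPKM against 147 and 159 RPKM and fell by 1.45 ± 0.21 (adjusted p = 0.00875, called without each library). The complex III core protein gene Uqcrc2 stood at 986 and 776 RPKM against 293 and 361 RPKM and fell by 1.42 ± 0.25 (adjusted p = 0.0167; 0.0806 without cKO replicate 1).

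The mitochondrial genome encodes 13 proteins of these complexes, which mitochondrial ribosomes translate. Of the 10 such mRNAs tested, 5 fell and all 10 had cKO below WT in both libraries (8.2% of all genes tested), with a median of -1.57. mt-Atp6, a subunit of ATP synthase, stood at 4973 and 8902 RPKM in WT and at 1628 and 1878 RPKM in cKO and fell by 1.93 ± 0.42 (limma adjusted p = 0.029). mt-Nd5, a complex I subunit, stood at 2031 and 3602 RPKM against 785 and 822 RPKM and fell by 1.75 ± 0.36 (adjusted p = 0.0258). mt-Co1, the catalytic subunit of cytochrome c oxidase, had 11266 and 21308 RPKM against 5826 and 4767 RPKM (-1.56 ± 0.48, adjusted p = 0.0688). The count was 8 without WT replicate 1, 1 without cKO replicate 1, and 0 without WT replicate 2 or cKO replicate 2, and 3 with quantile scaling. The mitochondrial ribosomal proteins, which are encoded in the nucleus, were called in both directions: 4 of 78 rose and 4 fell. Their median was -0.01, and 63 of the 78 lay below the median gene. Without WT replicate 2, 0 rose and 0 fell, and without cKO replicate 1 it was 1 and 0. Mrpl42 fell by 1.40 ± 0.20 (adjusted p = 0.00944) from 144 and 160 RPKM to 55.1 and 58.6 RPKM, and Mrps7 rose by 1.64 ± 0.26 (adjusted p = 0.0127) from 35.8 and 26.0 RPKM to 98.2 and 96.5 RPKM. Their adjusted p without WT replicate 2 was 0.0528 and 0.0778, and without cKO replicate 1 it was 0.0508 and 0.0704.

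**Figure D2:**
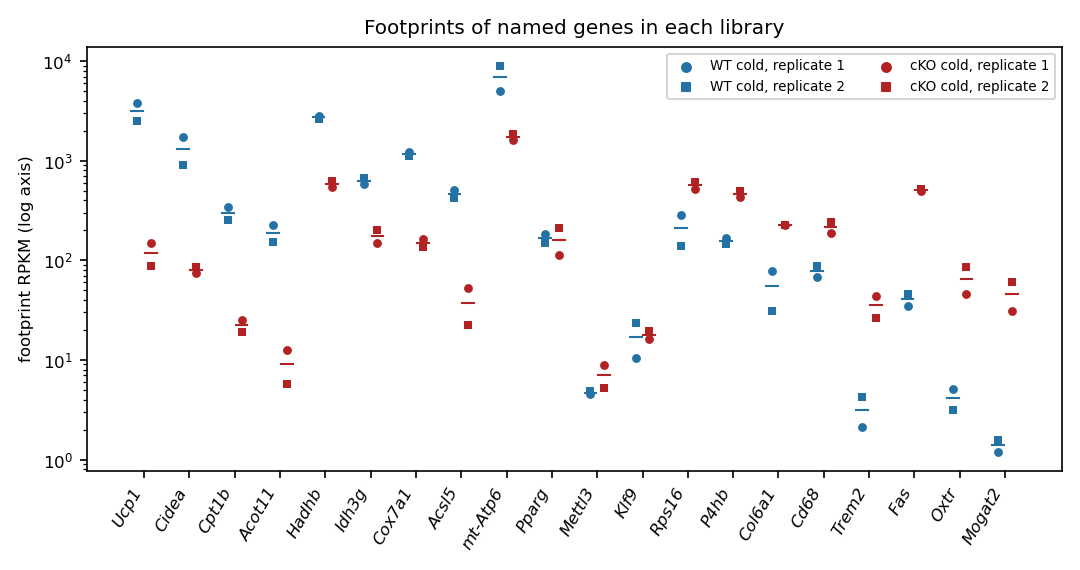
Footprint RPKM (log axis) of 20 genes in WT cold (blue) and cKO cold (red) libraries, replicate 1 as circles and replicate 2 as squares, with a bar at the group mean. The groups lie apart for the thermogenic and oxidation genes at the left, overlap for Pparg and Klf9, and lie apart in the other direction for the genes at the right.

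Lipid handling was mixed. Of 23 genes of de novo lipogenesis 3 fell and 0 rose, and of 26 genes of triglyceride synthesis and lipolysis 7 fell and 0 rose. Without WT replicate 1 these counts were 2 and 3, without WT replicate 2 they were 1 and 2, and without cKO replicate 1 they were 0 and 1. Acacb, the acetyl-CoA carboxylase whose product restrains fatty acid entry into mitochondria, stood at 212 and 114 RPKM in WT and at 30.7 and 47.4 RPKM in cKO. It fell by 2.0 ± 0.32 (limma adjusted p = 0.0128; 0.0804 without cKO replicate 1). Plin4, a lipid droplet coat protein, stood at 49.1 and 50.5 RPKM against 10.8 and 6.62 RPKM and fell by 2.42 ± 0.31 (adjusted p = 0.00743), called without each library. Glycerol kinase (Gk), which lets fat cells reuse glycerol, stood at 338 and 203 RPKM against 54.9 and 46.9 RPKM and fell by 2.34 ± 0.36 (adjusted p = 0.0108; 0.0598 without cKO replicate 1). The lipase gene Pnpla2 stood at 1263 and 1541 RPKM against 584 and 457 RPKM and fell by 1.43 ± 0.30 (adjusted p = 0.0261), a call that held only without WT replicate 1 (0.0373; 0.0665 to 0.108 without the others).

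A pair of related enzymes of the monoacylglycerol pathway changed in opposite directions. Mogat2 rose from 1.20 and 1.57 RPKM in WT to 31.2 and 61.2 RPKM in cKO, by 4.24 ± 0.36 (limma adjusted p = 0.00138, called without each library). Mogat1 fell from 64.1 and 53.2 RPKM to 16.5 and 17.7 RPKM, by 1.72 ± 0.31 (adjusted p = 0.0196; 0.0508 to 0.093 without WT replicate 1, WT replicate 2 or cKO replicate 1). Acsl5, an acyl-CoA synthetase, stood at 512 and 420 RPKM against 52.5 and 22.5 RPKM and fell by 3.71 ± 0.36 (adjusted p = 0.00277). Pank1, the kinase that opens coenzyme A synthesis, stood at 73.2 and 76.5 RPKM against 10.4 and 11.5 RPKM and fell by 2.67 ± 0.23 (adjusted p = 0.00142). Both were called without each library.

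Of 26 general adipocyte markers 2 fell and 0 rose, with a median of -0.19, and 21 of the 26 lay below the median gene. Their difference from the thermogenic list was not tested. Pparg, the master regulator of fat cells, had footprints of 186 and 148 RPKM in WT and of 114 and 210 RPKM in cKO, with overlapping groups (-0.10 ± 0.31, limma adjusted p = 0.837). Fabp4, the abundant fatty acid carrier of adipocytes, had 38508 and 56927 RPKM against 41337 and 28986 RPKM, also overlapping (-0.44 ± 0.47, adjusted p = 0.529). Leptin (Lep) had 244 and 17.8 RPKM against 779 and 273 RPKM. Its difference of 2.77 ± 1.26 was not called (adjusted p = 0.163), and the WT replicates lay wide apart. The 2 markers that fell were Pnpla2 and the glycerol channel gene Aqp7, which stood at 217 and 216 RPKM against 116 and 128 RPKM (-0.82 ± 0.21, adjusted p = 0.0465; 0.0665 to 0.145 without a library).

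Macrophage genes rose in cKO footprints. Of 20 general macrophage markers 5 rose and 0 fell, and of 23 genes of lipid-associated macrophages 10 rose and 0 fell, with medians of 1.08 and 1.20. With centred values 0 and 5 of them rose. Without cKO replicate 1, where the summed macrophage markers were highest, 0 and 1 rose; without WT replicate 2 it was 0 and 4, without WT replicate 1 it was 1 and 6, and without cKO replicate 2 it was 3 and 10. In these bulk samples more macrophages and more RNA per macrophage cannot be told apart. The 21 macrophage markers in the matrix summed to 4438 and 5253 RPKM in WT and to 11960 and 6407 RPKM in cKO.

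Cd68, a lysosomal protein of macrophages, stood at 67.7 and 88.7 RPKM in WT and at 190 and 245 RPKM in cKO. It rose by 1.47 ± 0.26 (limma adjusted p = 0.0181), with adjusted p of 0.0449 to 0.0576 when a library was left out, under the threshold only without WT replicate 1. Adgre1, which encodes the F4/80 antigen, stood at 24.9 and 22.7 RPKM against 103 and 68.2 RPKM and rose by 1.78 ± 0.41 (adjusted p = 0.0349; 0.0557 to 0.158 without a library). Trem2, the lipid-sensing receptor that defines lipid-associated macrophages, stood at 2.14 and 4.21 RPKM against 44.3 and 26.3 RPKM and rose by 3.12 ± 0.44 (adjusted p = 0.00875; 0.0658 without cKO replicate 1). Mmp12, the macrophage elastase, stood at 3.38 and 9.23 RPKM against 78.4 and 97.4 RPKM and rose by 3.72 ± 0.53 (adjusted p = 0.00875; 0.0577 without cKO replicate 1).

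Some lysosomal genes rose. Of 26 genes of the lysosomal proton pump and cathepsins 5 rose and 0 fell, against 7.31% and 1.82% of all genes tested. Their median was 0.52 against 0.45 for all genes, and 10 of the 26 lay below the median gene. With centred values 1 rose. When a library was left out 1 rose, except without cKO replicate 2, where 6 rose. Several members, Atp6v0d2 and Ctsb among them, are also on the list of lipid-associated macrophages. Atp6v0d2, a pump subunit of macrophages and osteoclasts, was listed at 0 in WT replicate 1 and at 4.99 RPKM in WT replicate 2, and stood at 72.7 and 35.7 RPKM in cKO (4.41 ± 0.80, limma adjusted p = 0.0203; 0.113 without cKO replicate 1). Cathepsin B (Ctsb), the most abundant of those called, stood at 1952 and 1900 RPKM against 3753 and 3783 RPKM. It rose by 0.97 ± 0.26 (adjusted p = 0.0484), with adjusted p of 0.0633 to 0.131 when a library was left out.

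Some cytokine, chemokine and death receptor genes rose too. Of 19 tested 6 rose and 0 fell, against 7.31% and 1.82% of all genes tested, and 3 rose with centred values. Among genes with 1 RPKM or more in all 4 footprint libraries 2 of the list rose. With WT replicate 2 or cKO replicate 2 left out 3 rose, without cKO replicate 1 it was 4, and without WT replicate 1 it was 5. Fas, the death receptor, stood at 35.1 and 46.0 RPKM in WT and at 493 and 519 RPKM in cKO, and rose by 3.62 ± 0.28 (limma adjusted p = 0.00102). The interleukin-1 receptor antagonist gene Il1rn stood at 0.749 and 0.982 RPKM against 25.8 and 21.3 RPKM and rose by 3.71 ± 0.38 (adjusted p = 0.00377). Il1rn passed the filter of 1 RPKM through its cKO libraries alone. Ccl2, the chemokine that recruits monocytes, stood at 9.91 and 9.44 RPKM against 71.5 and 105 RPKM and rose by 3.04 ± 0.34 (adjusted p = 0.00559). These 3 calls held without each library. Ccl7, a related chemokine, stood at 8.25 RPKM and 0 in WT and at 28.5 and 26.0 RPKM in cKO (3.21 ± 0.80, adjusted p = 0.041), and was called only without WT replicate 1 (0.0116; 0.0856 to 0.158 without the others). Of 22 interferon-stimulated genes, with a median of 0.75, 2 rose (Ifi35 and Irf9, by 1.04 ± 0.27 and 0.95 ± 0.25), and neither was called when a library was left out (adjusted p of 0.112 to 0.117 and 0.0679 to 0.163).

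Matrix and secretory genes rose alongside. Of 24 fibroblast and preadipocyte markers 8 rose and 0 fell, with a median of 1.44, and of 19 other collagens and basement membrane genes 9 rose and 0 fell, with a median of 1.21. With centred values 4 and 1 rose. Without WT replicate 2 or cKO replicate 1 no member of either list was called, without cKO replicate 2 it was 1 and 1, and without WT replicate 1 it was 10 and 13. Col6a1, a subunit of the pericellular collagen VI, stood at 79.1 and 31.2 RPKM in WT and at 228 and 225 RPKM in cKO, and rose by 2.16 ± 0.40 (limma adjusted p = 0.0208; 0.0842 without WT replicate 2, 0.101 without cKO replicate 1 and 0.0555 without cKO replicate 2). Col18a1, a basement membrane collagen, stood at 4.06 and 1.77 RPKM against 24.3 and 16.6 RPKM and rose by 2.49 ± 0.37 (adjusted p = 0.0102; 0.0629 and 0.0728 without WT replicate 2 and cKO replicate 1).

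Of 20 chaperones of the endoplasmic reticulum, which fold secreted and membrane proteins, 7 rose and 0 fell, with a median of 0.95. With centred values 2 rose, without WT replicate 2 or cKO replicate 1 it was 1 each, without cKO replicate 2 it was 4, and without WT replicate 1 it was 8. P4hb, a disulfide isomerase that is also a subunit of the collagen prolyl hydroxylase, stood at 167 and 148 RPKM in WT and at 433 and 502 RPKM in cKO. It rose by 1.56 ± 0.22 (limma adjusted p = 0.00875) and was called without each library. Pdia4, another disulfide isomerase, stood at 103 and 87.5 RPKM against 264 and 222 RPKM and rose by 1.34 ± 0.22 (adjusted p = 0.0148; 0.077 and 0.0762 without WT replicate 2 and cKO replicate 1). The heat shock proteins of the cytosol and mitochondria showed less: 2 of 13 rose, with a median of 0.30. They were Cryab (adjusted p = 0.0276; 0.137 and 0.057 without cKO replicates 1 and 2) and Dnajb1 (adjusted p = 0.0403; 0.171, 0.161 and 0.0555 without WT replicate 2, cKO replicate 1 and cKO replicate 2). Genes of the ATF4 response, which follows amino acid and translation stress, were near the median gene at 0.33, with 2 of 22 called higher. Both were enzymes of serine synthesis: Phgdh stood at 57.0 and 33.1 RPKM in WT and at 148 and 140 RPKM in cKO (1.70 ± 0.27, adjusted p = 0.0124; 0.0535 and 0.0696 without WT replicate 2 and cKO replicate 1), and Psat1 at 66.3 and 64.2 RPKM against 144 and 137 RPKM (1.10 ± 0.21, adjusted p = 0.0225; 0.0901 and 0.0892 without them).

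Further genes named by the size of their change or as called members of other lists had varied roles. Oxtr, the oxytocin receptor, stood at 5.16 and 3.15 RPKM in WT and at 45.4 and 84.9 RPKM in cKO and rose by 3.64 ± 0.41 (limma adjusted p = 0.00573). Npr3, the receptor that clears natriuretic peptides, stood at 55.5 and 72.4 RPKM against 476 and 295 RPKM and rose by 2.54 ± 0.28 (adjusted p = 0.00529). Both were called without each library. Igfals, which encodes a subunit of the circulating IGF complex, stood at 19.2 and 3.19 RPKM against 89.5 and 147 RPKM. It rose by 3.65 ± 0.67 (adjusted p = 0.0206; 0.0636 to 0.0862 without WT replicate 2, cKO replicate 1 or cKO replicate 2). In the other direction S100b, a calcium-binding protein that adipocytes and Schwann cells share, stood at 75.4 and 41.8 RPKM against 6.67 and 5.49 RPKM and fell by 3.02 ± 0.37 (adjusted p = 0.00682), without each library too. Adcy3, the adenylyl cyclase downstream of adrenergic receptors, stood at 34.4 and 25.5 RPKM against 9.37 and 8.37 RPKM and fell by 1.63 ± 0.25 (adjusted p = 0.0113; 0.0542 without cKO replicate 1). H2-Q10, a secreted class I molecule, stood at 67.7 and 51.6 RPKM against 1.89 and 10.9 RPKM and fell by 3.36 ± 0.54 (adjusted p = 0.0125; 0.0719 without WT replicate 2). Reads of H2-Q10 may be shared with near-identical class I genes, so its value is uncertain.

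Calls in the translation machinery as deposited were all rises, where 7.31% of all genes tested rose and 1.82% fell. Of 74 cytosolic ribosomal proteins 8 rose and 0 fell, and all 74 lay above 0, with a median of 0.95 against 0.45 for all genes. The groups did not overlap with cKO above WT in 43 of them (49.8% of all genes), and 62 lay above the median gene. With centred values 0 were called and with quantile scaling 4. The calls followed the libraries: 49 rose without WT replicate 1 and 0 without any of the other 3. Their summed footprints were 32075 RPKM in WT replicate 1, 16330 RPKM in WT replicate 2, and 35901 and 48813 RPKM in cKO, so WT replicate 1 lay close to cKO replicate 1. Rps16, a small-subunit protein, stood at 286 and 139 RPKM in WT and at 519 and 618 RPKM in cKO and rose by 1.50 ± 0.33 (limma adjusted p = 0.0292; 0.107, 0.104 and 0.0744 without WT replicate 2, cKO replicate 1 and cKO replicate 2). Ribosomal protein genes have many processed pseudogenes, which makes single values uncertain. Of 39 initiation factors 1 rose and 0 fell (6 rose without WT replicate 1, 0 without WT replicate 2 or cKO replicate 1), namely Eif1a (31.0 and 49.5 RPKM against 133 and 107 RPKM, 1.58 ± 0.31, adjusted p = 0.0231; 0.0591, 0.0561 and 0.113 without WT replicates 1 and 2 and cKO replicate 1). Of 22 elongation and release factors 2 rose and 0 fell, while 7 rose without WT replicate 1, 0 without WT replicate 2 and 1 without either cKO library. They were Eef2k, the kinase that slows elongation (9.02 and 5.79 RPKM against 21.8 and 19.3 RPKM, 1.38 ± 0.34, adjusted p = 0.0397; 0.178, 0.15 and 0.0729 without WT replicate 2, cKO replicate 1 and cKO replicate 2), and Eif5a2, which was listed at 0 in both WT libraries and stood at 3.01 and 4.12 RPKM in cKO (adjusted p = 0.0127; 0.0563 without WT replicate 2). The reads behind Eif5a2 were at least 3 and 5 in cKO, and the gene passed the filter through cKO alone.

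Many ribosomal protein mRNAs begin with a cytosine followed by a run of pyrimidines, the 5′ terminal oligopyrimidine (TOP) start through which mTOR signalling sets their translation. The starts are shown because all ribosomal protein genes tested lay above 0 in footprints. In the RefSeq promoter table (GRCm38.p6), the annotated start was searched on the transcribed strand for C followed by at least 4 C or T, and 3.01% of 27025 genes held such a start. Of 54 ribosomal protein genes with an entry, 11 held it (20.4%). Below, 10 bases before and 20 bases from the start are printed 5′ to 3′, with the pyrimidine run that begins at the start in capitals. They are Rpl35a (chr16:33056472-33056501, + strand), the single called ribosomal protein gene with this start (741 and 538 RPKM in WT, 1151 and 1550 RPKM in cKO, 1.08 ± 0.28, limma adjusted p = 0.0458, and 0.101 to 0.185 without WT replicate 2, cKO replicate 1 or cKO replicate 2), and, as genes not called, Rps18 (chr17:33955646-33955675, - strand), Rps6 (chr4:86857348-86857377, - strand), Rpl15 (chr14:18270967-18270996, - strand) and the initiation factor gene Eif3f (chr7:108934405-108934434, + strand).
Rpl35a: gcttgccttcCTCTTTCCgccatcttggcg
Rps18: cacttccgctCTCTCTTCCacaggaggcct
Rps6: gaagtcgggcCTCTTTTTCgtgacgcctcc
Rpl15: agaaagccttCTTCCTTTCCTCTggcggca
Eif3f: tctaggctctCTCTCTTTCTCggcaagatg
The runs shown hold 8 to 13 pyrimidines. The 11 ribosomal protein genes with an annotated TOP start had a median footprint difference of 0.65, and the 43 without had 1.00. The 270 tested genes of any kind with such a start had a median of 0.44, as did the 9132 without. An annotated start can lie some bases from the start used in the tissue, so a missing run says only that these letters are not at the annotated base.

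Some genes of the m6A system were called higher, where 7.31% of all genes tested rose and 1.82% fell. Of 13 writer genes 1 rose and 0 fell: Mettl16, a separate methyltransferase, stood at 13.9 and 8.54 RPKM in WT and at 23.8 and 30.4 RPKM in cKO (1.22 ± 0.33, limma adjusted p = 0.0481; 0.12 to 0.215 without WT replicate 2, cKO replicate 1 or cKO replicate 2). Mettl14, the partner of METTL3, had 9.94 and 10.7 RPKM against 15.8 and 11.9 RPKM (0.38 ± 0.29, adjusted p = 0.373). Wtap, the adaptor of the complex, had 33.0 and 30.9 RPKM against 41.8 and 38.6 RPKM (0.32 ± 0.22, adjusted p = 0.318). Both differences lie below that of the median gene, and turn negative when values are centred. Of 13 erasers and readers 2 rose, the reader genes Ythdf1 and Ythdf2. Ythdf1 stood at 14.6 and 15.5 RPKM against 31.4 and 32.1 RPKM (1.03 ± 0.22, adjusted p = 0.0275) and Ythdf2 at 27.4 and 27.2 RPKM against 55.3 and 89.8 RPKM (1.34 ± 0.28, adjusted p = 0.0269). Neither was called with centred values, nor Ythdf1 without any library (0.0531 to 0.0959), nor Ythdf2 without WT replicate 1 (0.0559), WT replicate 2 (0.111) or cKO replicate 2 (0.0673).

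Klf9, the transcription factor of the study's title, did not differ beyond the spread. Its footprints were 10.4 and 23.6 RPKM in WT and 16.3 and 19.7 RPKM in cKO, from at least 19, 33, 26 and 38 reads, so the cKO values lay between those of WT. The difference was 0.18 ± 0.38 (limma adjusted p = 0.767) and turned negative with centred values (-0.25). In the input RNA Klf9 stood at 28.8 and 48.0 RPKM in WT and at 38.6 and 32.0 RPKM in cKO (-0.08 ± 0.38, adjusted p = 0.916). Of 11 KLF factors tested 2 rose and 0 fell. Klf3 stood at 38.0 and 35.6 RPKM against 94.9 and 67.9 RPKM (1.11 ± 0.25, adjusted p = 0.0312; 0.055 to 0.13 without WT replicate 1, WT replicate 2 or cKO replicate 1), and Klf7 at 3.54 and 3.48 RPKM against 8.15 and 8.38 RPKM (1.04 ± 0.26, adjusted p = 0.041; 0.065 to 0.126 without a library). Neither was called with centred values.

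Markers of other cell types show what the footprint libraries held besides fat cells. T and B cell markers summed to 653 and 460 RPKM in WT and to 1394 and 473 RPKM in cKO, all 18 above 0 in each footprint library, and to 2.25 to 13.4 RPKM in the cold inputs. The lymph node stroma markers, among them Glycam1, a mucin of lymph node vessels, summed to 548 and 661 RPKM against 1085 and 411 RPKM in footprints and to 8.44 to 34.1 RPKM in the inputs. Of the 18 T and B cell markers and the 8 stroma markers tested, 0 were called in footprints by limma at an adjusted p under 0.05, and 1 and 0 had an unadjusted p under 0.05. Footprints and inputs thus differed in these markers in both genotypes, and their part in the results was not tested.

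The tissue genes of cKO replicate 1 reached the calls. Of the 39 Krtap genes in the matrix 38 were above 0 in that library and 0, 1 and 5 in the others, 4 were among the genes tested, and 3 of those rose. Krtap15 was listed at 0 in both WT libraries and stood at 67.5 and 3.36 RPKM in cKO (limma adjusted p = 0.037), Krtap8-1 at 45.2 and 4.14 RPKM (adjusted p = 0.0248) and Krtap7-1 at 58.2 and 2.90 RPKM (adjusted p = 0.0402). All 3 passed the filter through cKO alone, and most of each cKO mean came from replicate 1. Without it the adjusted p was 0.0502, 0.0454 and 0.0577, and without WT replicate 2 it was 0.15, 0.115 and 0.159. Skeletal muscle markers varied in the same library. Of 8 tested 0 were called by limma, 5 had an unadjusted p under 0.05, and 3 rose without cKO replicate 2. Acta1, muscle actin, had 3.18 and 4.63 RPKM in WT and 82.6 and 2.01 RPKM in cKO (1.71 ± 1.56, adjusted p = 0.458). Tnni2, a fast muscle troponin, had 3.66 RPKM and 0 against 113 and 3.47 RPKM (adjusted p = 0.135; 0.0469 without cKO replicate 2). In the inputs it was cKO replicate 2 that held more muscle, with 290 RPKM over the list against 33.7 to 45.5 RPKM.

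**Figure D3:**
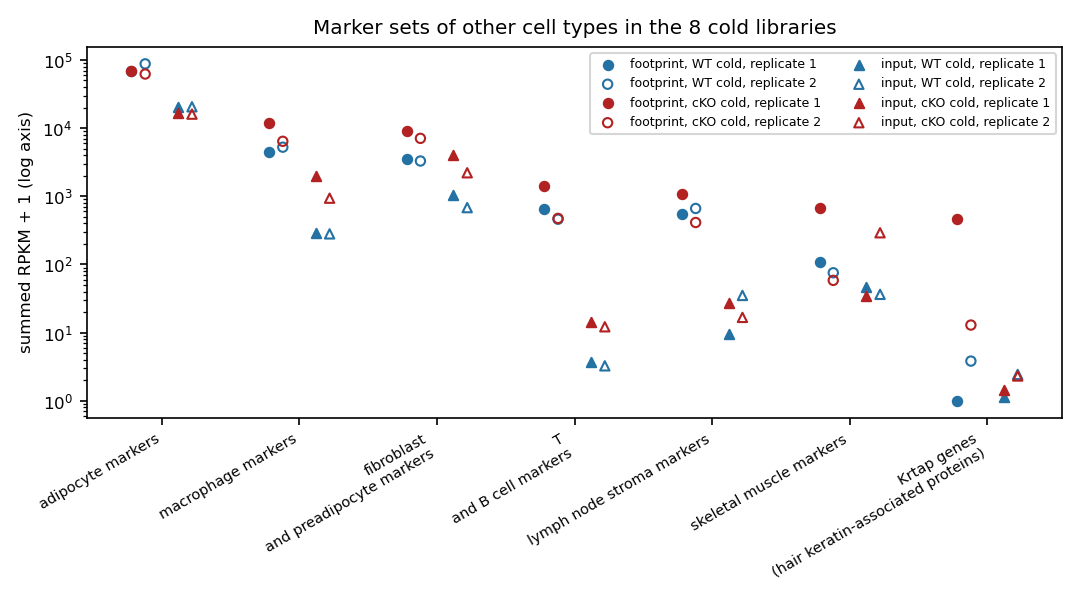
Summed RPKM + 1 (log axis) of 7 marker sets in each of the 8 cold libraries, footprints as circles and inputs as triangles, WT in blue and cKO in red, replicate 1 filled and replicate 2 open. Lymphoid and lymph node markers lie far higher in footprints than in inputs in both genotypes, and Krtap and muscle genes lie highest in footprints of cKO replicate 1.

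Endothelial, smooth muscle and pericyte markers had 0 of 16 and 0 of 12 called by limma, with medians of 0.14 and 0.43 and with 1 and 4 at an unadjusted p under 0.05. Of 17 mast cell and neutrophil markers 2 rose. Fcer1a, part of the IgE receptor, stood at 5.33 and 7.69 RPKM in WT and at 47.8 and 19.2 RPKM in cKO (2.08 ± 0.45, limma adjusted p = 0.0287; 0.0747, 0.0985 and 0.123 without WT replicates 1 and 2 and cKO replicate 1), and Ltf, lactoferrin of neutrophil granules, stood at 3.77 and 4.94 RPKM against 12.8 and 12.1 RPKM (1.34 ± 0.32, adjusted p = 0.0375; 0.0609 to 0.114 without a library). In the inputs Ltf was listed at 0 in all 4 cold libraries. Of 7 Schwann cell and nerve markers 1 rose (Pmp22, 1.31 ± 0.28, adjusted p = 0.0282; 0.0578 to 0.112 without a library) and 1 fell (S100b). Of 6 red blood cell markers 0 were called, and 0 had an unadjusted p under 0.05.

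Counts of other regulatory groups stand beside 7.31% of all genes tested that rose and 1.82% that fell. Of 20 cell cycle genes 1 rose (Pcna, the replication clamp, 0.93 ± 0.23, limma adjusted p = 0.0393), of 19 immediate early genes 1 (Egr2, 1.76 ± 0.44, adjusted p = 0.0421) and of 18 clock genes 1 (Hlf, 1.49 ± 0.30, adjusted p = 0.0252). None of the 3 was called with centred values, and each lost its call without WT replicate 2 and without cKO replicate 1 (adjusted p of 0.0859 to 0.172). Of 37 proteasome subunits and 20 insulin signalling genes 0 were called, with medians of 0.15 and 0.14. An unadjusted limma p under 0.05 was found in 5 and 3 of them, against 3811 of all 11803 genes tested. Of 19 genes of adrenergic and cAMP signalling 1 fell (Adcy3) and 1 rose (Gnai2, an inhibitory G protein, 0.95 ± 0.22, adjusted p = 0.037), the latter not called with centred values (0.187), nor without WT replicate 2 (0.139), cKO replicate 1 (0.13) or cKO replicate 2 (0.0566).

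**Figure D4:**
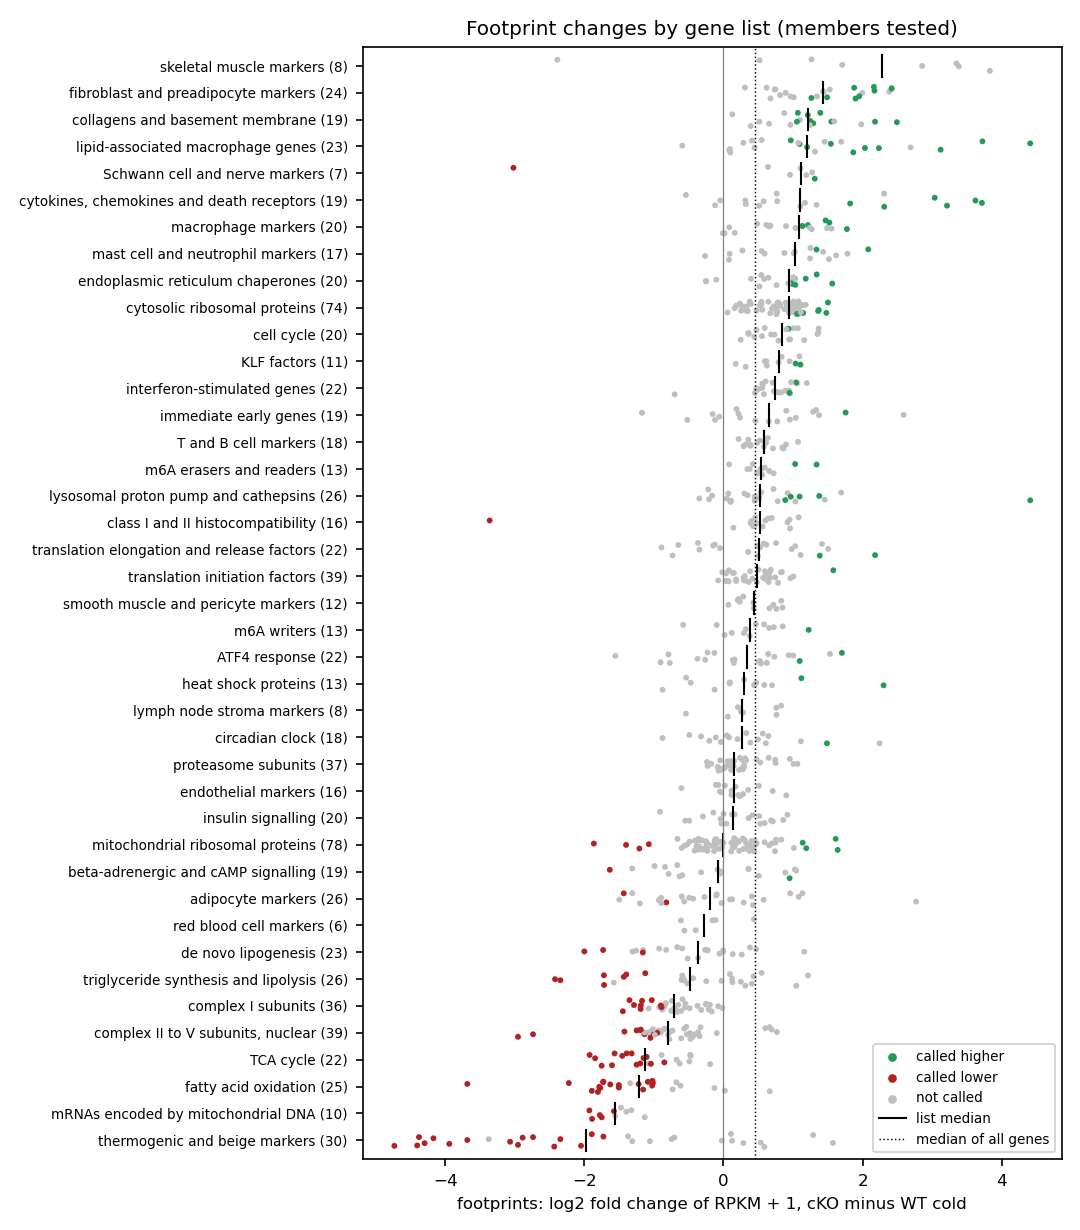
Footprint differences (log2 fold change of RPKM + 1, cKO minus WT) of the tested members of the gene lists with at least 5 of them, 1 point per gene, coloured by call, with a bar at each list's median and a dotted line at the median of all genes. Lists of thermogenesis, mitochondrial mRNAs and oxidation lie lowest of those shown, and the fibroblast, collagen and lipid-associated macrophage lists follow the skeletal muscle markers at the top.

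The footprint differences were then set beside those of the input RNA in the same genes, which asks whether ribosome occupancy changed beyond the mRNA. In the inputs 735 genes rose (6.23%) and 96 fell (0.813%) in cKO, with a median of 0.40. Of the 863 footprint rises 371 were also called in the inputs (43.0% of the footprint calls and 50.5% of the input calls), and of the 215 falls 83 were (38.6% and 86.5%). A total of 0 genes were called in opposite directions, and across genes the differences correlated at r = 0.676, a description without independent replicates. Footprints and inputs came from different libraries and shared no control library. Both sets of calls came from the same fit with a shared spread per gene, so their overlap is not one of independent tests.

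The difference between footprints and input was tested as an interaction. At a limma adjusted p under 0.05, 0 genes were called, and the smallest adjusted p was 0.0845. An unadjusted p under 0.05 was found in 392 genes (3.32%). With quantile scaling, a pseudocount of 0.1 or input and footprint pairs as blocks 1 gene was called (0.00847%), and 4 without cKO replicate 2. The median SE of the interaction was 0.47 on the log2 scale, and the number of libraries limits what can be detected in a single gene. For the thermogenic list the interaction had a median of -0.19, and 0 of 30 genes had an unadjusted p under 0.05. For fatty acid oxidation it was -0.31 with 1 of 25, for the TCA cycle -0.26 with 0 of 22, and for complex I 0.08 with 1 of 36. Ucp1, Cidea and Cpt1b differed in the inputs by -4.66 ± 0.72, -3.83 ± 0.30 and -3.43 ± 0.31, close to their footprints.

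Single genes with the smallest interaction p are given as candidates that were not called. Smim1, a small membrane protein of red blood cells, was listed at 0 in both WT footprint libraries and stood at 27.5 and 22.6 RPKM in cKO, while its input was 2.99 and 1.68 RPKM in WT and 4.61 and 3.78 RPKM in cKO. The reads recovered for Smim1 in cKO footprints were at least 1 and 1, and how many more there were is not known. Its footprint rise was called without each library (limma adjusted p = 0.00102), and the interaction had an adjusted p of 0.0845. Smim1 passed the filter through its cKO libraries alone, so these values are no independent support for its rise. Acsl5 fell by 3.71 in footprints and by 1.42 ± 0.36 in inputs, an interaction of -2.29 (unadjusted p = 0.0013). S100b fell by 3.02 in footprints, and its input difference was -0.85 ± 0.37 (interaction -2.17, unadjusted p = 0.0024). Myl6b, a myosin light chain, ran in opposite directions, from 2.58 and 3.38 RPKM to 8.15 and 6.10 RPKM in footprints (1.03 ± 0.30, adjusted p = 0.0593) and from 7.98 and 7.22 RPKM to 2.16 and 2.0 RPKM in inputs (-1.48 ± 0.30).

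The interaction was also read for the macrophage lists, in which no gene was called. Over all genes tested 3.32% had an unadjusted limma p under 0.05. Such p-values were not particular to macrophage genes. They were found in 5 of 17 mast cell and neutrophil markers and in 6 of 78 mitochondrial ribosomal proteins. The median interaction of these 2 lists was 0.16 and -0.06, against -0.79 and -0.28 in the macrophage lists. Of 20 macrophage markers 15 rose in the inputs and 5 in footprints, the median interaction was -0.79, and 5 of the 20 had an unadjusted p under 0.05. Of 23 lipid-associated macrophage genes 14 rose in the inputs and 10 in footprints, with a median interaction of -0.28 and 4 at an unadjusted p under 0.05. Cd68 rose by 3.31 ± 0.26 in the inputs, from 12.9 and 16.9 RPKM to 175 and 139 RPKM, against 1.47 in footprints (interaction -1.85, unadjusted p = 0.00061). Cd52, a surface protein of lymphocytes and macrophages, rose by 3.02 ± 0.31 in the inputs, from 2.69 and 1.75 RPKM to 25.9 and 24.0 RPKM, and had 391 and 220 RPKM in WT and 597 and 465 RPKM in cKO footprints (interaction -2.18, unadjusted p = 0.00061). In WT the summed macrophage markers were 285 and 280 RPKM in the inputs and 4438 and 5253 RPKM in footprints. Levels in footprints and inputs share no total, and the part of these levels in the interaction was not tested.

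The calls that were kept without each footprint library in turn and under both scalings were picked after their values were seen. The 24 rises were Adam8, Ccdc80, Ccl2, Chpf, Cnep1r1, Eva1b, Fas, Flna, Hebp1, Il1rn, Itga7, Lgals3, Mettl7b, Mogat2, Mrc2, Mt3, Npr3, Oxtr, P4hb, Ppp1r14c, Serpina3c, Smim1, Sncg and Tm4sf19. Among them Lgals3, which encodes the lectin galectin-3, stood at 101 and 165 RPKM in WT and at 450 and 628 RPKM in cKO (2.03 ± 0.30, limma adjusted p = 0.00936). Sncg, a synuclein abundant in white adipocytes, stood at 363 and 240 RPKM against 1217 and 1189 RPKM (2.02 ± 0.28, adjusted p = 0.00854). Mt3 and Ppp1r14c were listed at 0 in both WT libraries and rested on few reads in cKO, at least 4 and 3 for Mt3 and at least 7 and 8 for Ppp1r14c. The 32 falls included Acaa2, Acadvl, Acot11, Acsl5, Aspg, Cidea, Coq8a, Cox7a1, Cpt1b, Crls1, Ddhd2, Etfdh, Fbp2, Gmpr, Hadha, Hadhb, Idh3g, Ldhb, Letmd1, Ndufa9, Otop1, Pank1, Pfkl, Phospho1, Plin4, Rmdn1, Rprml, S100b, Slc27a2 and Ttpa. Phospho1 and Rprml were listed at 0 in both cKO libraries, and Rprml rested on at least 4 and 3 reads in WT. Crls1, the cardiolipin synthase of the inner mitochondrial membrane, stood at 51.1 and 67.5 RPKM in WT and at 14.7 and 16.7 RPKM in cKO (-1.84 ± 0.24, adjusted p = 0.00743). Coq8a, needed for coenzyme Q synthesis, stood at 208 and 146 RPKM against 41.1 and 24.3 RPKM (-2.42 ± 0.31, adjusted p = 0.00743). Ldhb, the lactate dehydrogenase subunit of oxidative tissue, stood at 892 and 745 RPKM against 153 and 221 RPKM (-2.14 ± 0.29, adjusted p = 0.00764), and Fbp2, the muscle fructose bisphosphatase, at 32.3 and 29.4 RPKM against 1.81 and 2.23 RPKM (-3.40 ± 0.39, adjusted p = 0.00615).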

How the data were processed

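The authors deposited 1 matrix of RPKM values for 17883 genes in 16 libraries, of which the 8 cold libraries (footprints and input RNA, WT and cKO, 2 libraries each) were fitted and 0 value columns were left out as unmapped. Per the submitters' processing notes, the processing involved HISAT2 and mm10; versions, the counting tool, the annotation and the total behind the RPKM are not given in the sources used here. Footprints were isolated by ultracentrifugation and made into libraries with a small RNA kit, per the labels' protocols. Gene identifiers matched RefSeq for 17871 rows, and 25 symbols written as dates in the matrix were set back. Genes from multigene families or with near-identical copies, and overlapping genes such as mt-Atp6, are uncertain where reads could be shared.

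RPKM + 1 was taken to log2 and genes reaching 1 RPKM in 2 or more of the 4 footprint libraries were kept. All were fitted in limma 3.58.1 (R 4.3.3, Python 3.11.15, numpy 2.4.6, pandas 2.3.3, matplotlib 3.10.9) with 4 group means, 4 residual degrees of freedom and a moderated variance with a trend on mean level. The interaction is the footprint difference minus the input difference. Calls use an adjusted p under 0.05 (Benjamini-Hochberg over 11803 genes). Multiples of what 1 read is worth gave whole reads in 100.0% of genes (tolerance 0.001 reads plus 3e-08 of the value), but RPKM fixes a gene's reads only up to a common factor, so read numbers are lower limits and no count test was run. The script was tested on simulated data.

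Named genes were the 12 largest changes each way among calls with groups apart and at least 5 RPKM, up to 4 called members per list, fixed regulators, the 8 smallest interaction p each way, the 10 most abundant genes and the 6 smallest footprint p each way; not all of them are printed. Genes named beside small counts, and those kept in all settings, were chosen after their values were seen. Members and lists were chosen with earlier results of these data known. Some results are not reported here.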

Additional observations from a re-analysis of the deposited data

How the results depend on the processing

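The count of genes that rose in footprints was 863 as deposited, 144 centred, 150 with quantile scaling, 484 with a pseudocount of 0.1, 511 with no filter on low values, 50 with the footprint libraries alone, 11 with these centred, 3423 with all 16 libraries and 43 against a log2 fold of 0.5 (limma treat). The count that fell was 215 as deposited, 366 centred, 41 alone, 62 alone and centred, 494 with all 16 libraries and 41 with treat. Leaving out 1 footprint library gave 50 to 816 rises and 50 to 172 falls. For the inputs, 735 rises became 204 centred, 199 with quantile scaling, 461 with no filter, 2519 with all 16 libraries and 122 with treat, and 96 falls became 202, 171, 283 with all 16 and 11 with treat. For the interaction, 0 genes became 1 higher with quantile scaling, a pseudocount of 0.1 or pairs as blocks, 2 higher and 1 lower with all 16 libraries, and 0 to 4 higher when a footprint library was left out. The cause of these changes was not tested, except that a smaller fit has fewer residual degrees of freedom.

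Scaling to reads outside Gm20594, chosen after seeing the data, gave 681 rises and 230 falls. Of 112 called genes named in the text, 92 stayed called without WT replicate 1, 63 without WT replicate 2, 59 without cKO replicate 1 and 83 without cKO replicate 2, and 0 changed sign.

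Replicate numbers were taken as not pairing the samples. Input and footprint libraries of the same number deviated together at r = 0.281 in WT and 0.222 in cKO, and footprints of the 2 genotypes at r = -0.003, with 2 pairs only. With the replicate number as a block 1253 genes rose and 248 fell in footprints and 1087 and 133 in inputs, and with input and footprint pairs as blocks 918 and 218 in footprints.

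Differences that were not called turned sign in 7 named genes. With centred values they were -0.25 for Klf9, -0.048 for Mettl14 and -0.10 for Wtap, and with the footprint libraries alone and centred -0.27, -0.064 and -0.12. With quantile scaling they were -0.022 for Mettl3, -0.28 for Klf9, -0.082 for Mettl14, -0.11 for Wtap and 0.24 for Fabp4. When 1 library was left out they ranged from -0.38 to 0.73 for Klf9, from -0.54 to 0.33 for Pparg and from -0.69 to 4.11 for Acta1.

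With 2 libraries per group, the median SE of a footprint difference was 0.39 among the least and 0.28 among the most abundant genes. A difference had to exceed its SE by far to be called in a single gene. Larger ones could also be missed, such as Dio2 (-1.37) and Adrb3 (-1.31), which were not called as deposited.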
